A study of Mus musculus with 12 samples.

Results

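The genes described here are 10 genes of the Leydig cell, the androgen-producing cell between the seminiferous tubules of the testis. They are Lhcgr, Star, Cyp11a1, Hsd3b1, Hsd3b6, Cyp17a1, Hsd17b3, Srd5a1, Insl3 and Nr5a1. They were picked by symbol, through the mm9 gene annotation, from the 37675 genes listed for every library, and the rule sets no threshold on a measured value. The libraries come from whole testes of male C57BL/6NHsd mice, an inbred strain, collected during the first wave of spermatogenesis. The groups are postnatal day (PND) 7, PND 14, PND 17, PND 21 and PND 28, with 2 untreated mice at each age. The labels give no difference between the groups besides age and the barcodes of PND 7. RNA depleted of ribosomal RNA was sequenced as reads of 50 bp. Each PND 7 mouse was split over 2 barcodes, which were joined again here to give 10 mice from 12 libraries. Only the PND 7 mice were split in this way, so the split and that age cannot be told apart. No cell type was isolated, so every value is a level in the whole organ.

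Steroidogenesis begins when luteinizing hormone binds its receptor on the Leydig cell. Cholesterol is then moved into the mitochondrion, cut to pregnenolone, and turned by a chain of dehydrogenases and a lyase into androgens. The mouse testis makes androgen with successive populations of this cell. Fetal Leydig cells make mainly androstenedione, because they lack the last dehydrogenase, and fetal Sertoli cells, the nurse cells of the tubule, finish testosterone. Adult Leydig cells arise after birth, pass through immature stages that reduce much of their testosterone, and in the adult carry the whole chain themselves. Hsd3b6 and Hsd17b3 in interstitial cells are commonly used as signs of the adult population, whereas Hsd3b1 serves both.

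Hsd3b1 and Hsd3b6 are neighbours on mouse chromosome 3 of mm9, on the minus strand, at chr3:98656117-98663717 and chr3:98609427-98618366, and their messages are so alike that the sequence decides how far counts can be told apart. Their coding sequences are both 1122 bases long and hold the same base at 1010 positions, or 90.0%. The first 120 coding bases are given here from the mm9 annotation, 5′ to 3′, with the bases that differ between the genes in capitals.
Hsd3b1: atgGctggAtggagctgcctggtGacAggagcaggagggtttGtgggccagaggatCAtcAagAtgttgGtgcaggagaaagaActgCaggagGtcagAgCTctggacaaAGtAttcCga
Hsd3b6: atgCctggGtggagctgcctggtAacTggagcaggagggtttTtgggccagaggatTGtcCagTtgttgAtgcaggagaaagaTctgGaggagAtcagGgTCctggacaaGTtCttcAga
In this stretch 20 bases differ. A stretch of 50 coding bases, the length of a read, held a median of 5.0 differences, and 38 of 1073 such stretches held none. Over all annotated coding transcripts, 16.1% of the 50-base stretches of Hsd3b6 and 2.11% of those of Hsd3b1 also occur in another gene. With up to 2 mismatches allowed, 50.7% of the stretches of the longest Hsd3b6 transcript and 17.2% of those of Hsd3b1 match another Hsd3b gene. The authors counted unique reads, and how reads that match both genes were placed was not tested.

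The 7 members with a promoter in the RefSeq set of GRCm38.p6 (Cyp11a1, Hsd3b1, Hsd3b6, Hsd17b3, Srd5a1, Insl3 and Lhcgr) were searched on both strands for CAAGGTC or CAAGGCC, the core letters bound by Nr5a1, the nuclear receptor also called SF-1. A match lay in 1 of the 7, that of Insl3, against 9.88% of 32851 promoters, each of 300 bases that span a gene's start. The Insl3 promoter, on the plus strand at chr8:71689002-71689301 of GRCm38.p6, is shown 5′ to 3′ with both matches in capitals, at bases 137 to 131 and 57 to 51 before the start.
Insl3: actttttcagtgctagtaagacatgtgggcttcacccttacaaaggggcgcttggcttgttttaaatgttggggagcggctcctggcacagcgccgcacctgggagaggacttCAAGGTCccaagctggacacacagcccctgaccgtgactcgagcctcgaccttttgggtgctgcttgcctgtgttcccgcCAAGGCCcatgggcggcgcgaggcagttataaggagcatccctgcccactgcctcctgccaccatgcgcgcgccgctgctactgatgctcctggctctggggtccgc
TATAAA, searched on the strand of the gene only, was in 0 of the 7 and in 8.32% of all promoters. A match describes letters and not binding, which was not measured here.

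Between 3994026 and 13559548 reads were counted on genes per mouse. Differentially expressed (DE) genes were called from the counts with edgeR's quasi-likelihood test where the p adjusted by Benjamini-Hochberg was below 0.05 and the change at least 2-fold, over the 16860 genes that had enough counts. All 10 members were among these. RPKM, the deposited read number scaled by exon length and library size, is used for levels, and CPM, the count as a share of the scaled library, is used for fold changes. Markers of the other cells set the frame. The 7 Sertoli cell markers found summed to between 1641 and 1988 CPM at PND 7 and between 409 and 565 CPM at PND 28. The 6 spermatid markers summed to between 2.40 and 6.31 CPM at PND 7, with 4 of 6 at 0 in both mice, and to between 5207 and 6159 CPM at PND 28. PND 14 mouse 1 held 188 CPM of them and mouse 2 13.3 CPM, and Prm1 among them measured 133 and 2.46 RPKM. The paper names early pachytene spermatocytes as the most mature germ cells at PND 14, so the values of mouse 1 are high for that age. Their source was not tested, and this mouse enters every PND 14 comparison. Mitochondrial genes and small structural RNAs took between 17.7% and 40.8% of counts. In a bulk sample a smaller number of Leydig cells and less RNA in each of them cannot be told apart, and a share of the total falls as germ cell RNA is added.

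Of the 10 members, 6 differed between ages in edgeR's test over all 5 ages, namely Cyp11a1, Hsd3b6, Cyp17a1, Hsd17b3, Srd5a1 and Insl3, while 57.5% of all genes tested did so. Star (adjusted p = 0.102), Hsd3b1 (0.243), Lhcgr (0.497) and Nr5a1 (0.0768) did not pass. The members did not move as a block. Hsd3b6 and Srd5a1 came up between PND 7 and PND 14 while Hsd17b3 fell. Cyp11a1, Cyp17a1, Insl3 and again Hsd17b3 rose between PND 21 and PND 28.

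**Figure D1:**
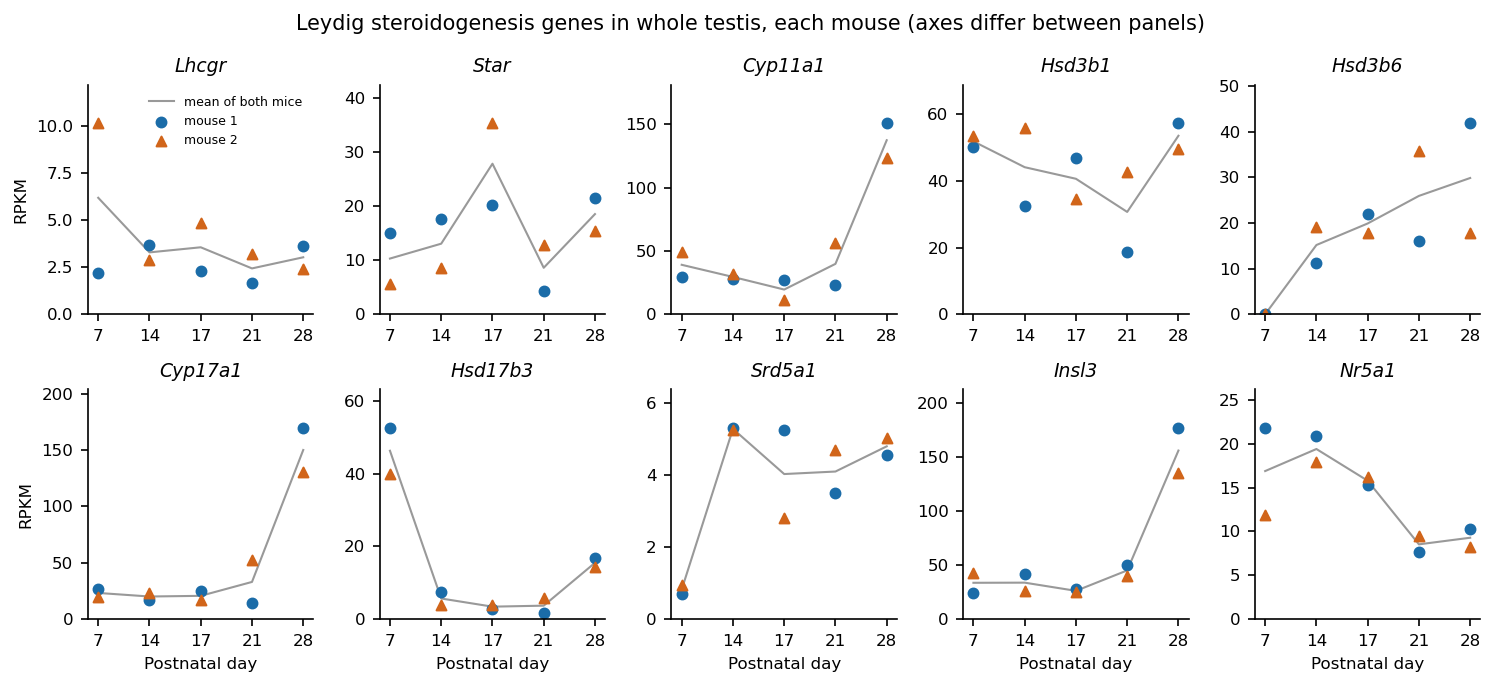
RPKM (vertical axis, linear from 0, a different range in each panel) of the 10 members against postnatal day, with a circle for mouse 1, a triangle for mouse 2 and a grey line through the mean of both. Hsd3b6 sits at 0 in both PND 7 mice, Hsd17b3 is highest at PND 7, and Cyp11a1, Cyp17a1 and Insl3 are highest at PND 28 in both mice.

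Lhcgr, the luteinizing hormone receptor, was low at every age. Its RPKM was 2.20 and 10.2 in the PND 7 mice, 3.68 and 2.88 at PND 14, 2.27 and 4.83 at PND 17, 1.68 and 3.18 at PND 21 and 3.64 and 2.40 at PND 28. The high value came from PND 7 mouse 2 and was alike in both of its barcodes (10.8 and 9.54), and the mice of all neighbouring ages overlapped. From PND 7 to PND 28 the log2 fold change was -0.66 (SE 0.65, adjusted p = 0.399), and without PND 7 mouse 2 it was 0.77.

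Star, which brings cholesterol to the inner mitochondrial membrane, varied more between the mice of an age than most members. Its RPKM was 15.0 and 5.56 at PND 7, 17.6 and 8.45 at PND 14, 20.2 and 35.4 at PND 17, 4.34 and 12.8 at PND 21 and 21.5 and 15.5 at PND 28. Both PND 17 mice lay above both PND 14 mice and above both PND 21 mice, and the drop from PND 17 to PND 21 was -1.51 on the log2 scale (SE 0.59) with an adjusted p of 0.123. None of the 6 comparisons passed the test for Star.

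Cyp11a1, the side-chain cleavage enzyme that commits cholesterol to steroid synthesis, stayed below 60 RPKM until PND 21 and then rose. It measured 29.3 and 48.8 RPKM at PND 7, 27.4 and 31.5 at PND 14, 27.4 and 11.6 at PND 17, 23.3 and 56.2 at PND 21 and 151 and 124 at PND 28. Both PND 28 mice were above every other mouse. From PND 21 to PND 28 the log2 fold change was 1.97 (SE 0.48, adjusted p = 0.0293), from PND 14 to PND 28 2.64 (SE 0.49, adjusted p = 0.00156) and from PND 7 to PND 28 2.14 (SE 0.48, adjusted p = 0.00266).

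Cyp17a1, the hydroxylase and lyase that makes androstenedione, followed the same course. Its RPKM was 26.7 and 19.7 at PND 7, 17.2 and 22.9 at PND 14, 24.6 and 16.6 at PND 17, 13.9 and 52.0 at PND 21 and 170 and 130 at PND 28. The order of PND 7, PND 14 and PND 17 could not be told apart, since their mice overlapped, whereas the PND 28 mice were apart from all others. The fold change from PND 7 to PND 28 was 8.11 (log2 3.02, SE 0.54, adjusted p = 0.000633) and that from PND 21 to PND 28 was 5.10 (log2 2.35, SE 0.53, adjusted p = 0.0194). Over the 10 mice, log2 CPM of Cyp17a1 and Cyp11a1 had r = 0.930, a description of points that share the PND 28 mice as their extreme.

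Hsd3b1, the dehydrogenase and isomerase that turns pregnenolone into progesterone, gave no DE call at any age. Its RPKM was 50.4 and 53.5 at PND 7, 32.4 and 56.0 at PND 14, 46.9 and 34.5 at PND 17, 18.8 and 42.7 at PND 21 and 57.5 and 49.7 at PND 28. Its log2 fold change from PND 7 to PND 28 was 0.37 (SE 0.40, adjusted p = 0.434), and the lowest value was that of PND 21 mouse 1.

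Hsd3b6, the paralog with the same reaction, was not seen at PND 7. Its count was 0 in both PND 7 mice and in all 4 of their barcodes, and its RPKM was 11.2 and 19.1 at PND 14, 21.9 and 17.8 at PND 17, 16.1 and 35.7 at PND 21 and 41.9 and 17.8 at PND 28. No mouse of a later age came near 0. Set against a floor of 3 counts over both PND 7 mice, Hsd3b6 in mean CPM was at least 141-fold higher at PND 14 (at least 99.1-fold in the lower mouse) and at least 369-fold higher at PND 28. edgeR gave adjusted p = 0.000277 for PND 14 and 1.6e-05 for PND 28. Between PND 14 and PND 28 it rose further in CPM (log2 1.40, SE 0.51, adjusted p = 0.0474). In RPKM, however, PND 28 mouse 2 (17.8) lay below PND 14 mouse 2 (19.1). The call was lost in 9 of 22 other settings. Among them were scaling by library totals (log2 1.00) and limma on RPKM with 1 or 0.1 added (0.86 and 0.89). Others were those without PND 28 mouse 1 (log2 0.62), PND 14 mouse 1 (1.04) or either PND 17 mouse (1.39 in both).

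The share of Hsd3b6 in the counts of both paralogs is free of the total of the library. It was 0 of 885 counts and 0 of 687 counts at PND 7, where a count of 0 allows a share of up to 0.339% and 0.437%. It was then 25.2% and 24.9% at PND 14, 31.2% and 33.4% at PND 17, 45.5% and 44.8% at PND 21 and 41.5% and 25.8% at PND 28. Up to PND 21 the 2 mice of an age lay within each other's 95% Wilson interval, and at PND 28 they did not (39.1% to 43.9% against 22.5% to 29.3%). These intervals and limits cover counting error only. The count of Hsd3b6 in PND 28 mouse 2 was 162 beside 467 for Hsd3b1, and in mouse 1 658 beside 929.

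**Figure D2:**
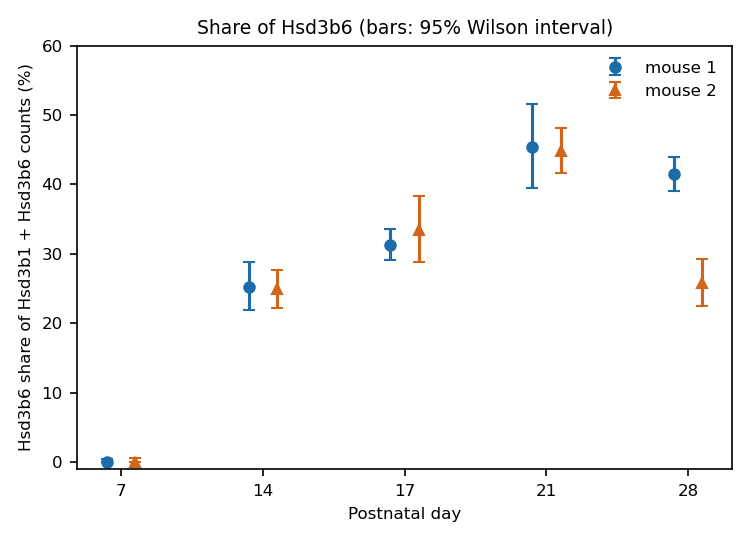
Hsd3b6 counts as a percentage of the Hsd3b1 and Hsd3b6 counts together (vertical axis) against postnatal day, with a circle for mouse 1, a triangle for mouse 2 and bars for the 95% Wilson interval of the counts. The share goes from 0 at PND 7 to 25.2% and 24.9% at PND 14 and 45.5% and 44.8% at PND 21, and the 2 mice part at PND 28.

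The other Hsd3b genes were lower or not seen. Hsd3b2 and Hsd3b3 had 4 counts each over all mice, and Hsd3b4 and Hsd3b5 had 0. Hsd3b7, a bile acid enzyme with 1389 counts, was lower at PND 28 than at PND 7 (log2 -1.88, SE 0.48, adjusted p = 0.00587).

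Hsd17b3, which reduces androstenedione to testosterone, had a course of its own. Its RPKM was 52.7 and 40.0 at PND 7, 7.41 and 3.92 at PND 14, 2.84 and 4.0 at PND 17, 1.57 and 5.82 at PND 21 and 16.7 and 14.3 at PND 28. Both PND 7 mice were far above all others, and both PND 28 mice were above those of PND 14 to PND 21. It fell 8.80-fold from PND 7 to PND 14 (log2 -3.14, SE 0.50, adjusted p = 0.00147) and rose 4.55-fold from PND 21 to PND 28 (log2 2.19, SE 0.52, adjusted p = 0.0254). At PND 28 it was still 2.38-fold below PND 7 (log2 -1.25, SE 0.46, adjusted p = 0.0352), a call that DESeq2 did not make (adjusted p = 0.0748) and that was lost without PND 7 mouse 1 (log2 -0.997) or without either PND 28 mouse (log2 -1.37 and -1.12). Of 7 Sertoli cell markers, 0 were DE from PND 7 to PND 14, beside 5.43% of all genes lower and 13.5% higher. With so few markers a count of 0 is near that share. Their median log2 fold change was -0.63. The part of Sertoli cells in the PND 7 level of Hsd17b3 was not tested.

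Srd5a1, which reduces testosterone to dihydrotestosterone and its precursors to other reduced steroids, rose early. It measured 0.705 and 0.935 RPKM at PND 7, 5.32 and 5.25 at PND 14, 5.25 and 2.81 at PND 17, 3.51 and 4.69 at PND 21 and 4.56 and 5.04 at PND 28. The PND 7 mice, with 19 counts each, were below every other mouse, and none of the 4 comparisons among later ages was called. The rise from PND 7 to PND 14 was 6.30-fold (log2 2.65, SE 0.41, adjusted p = 0.00121). Gm17108, a gene on the same strand, shares 15.8% of the exon bases of Srd5a1 and had between 0 and 28 counts per mouse. Over the 10 mice, log2 CPM of Srd5a1 and Hsd3b6 had r = 0.956, and here the PND 7 mice are the extreme points.

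Insl3, the Leydig cell hormone that guides the descent of the testis, rose with Cyp11a1 and Cyp17a1. Its RPKM was 24.4 and 42.8 at PND 7, 41.3 and 26.1 at PND 14, 27.5 and 24.8 at PND 17, 49.8 and 40.2 at PND 21 and 177 and 135 at PND 28. The ages up to PND 17 overlapped, and both PND 28 mice stood above all others. The log2 fold change was 2.03 from PND 21 to PND 28 (SE 0.31, adjusted p = 0.00329) and 2.56 from PND 7 to PND 28 (SE 0.32, adjusted p = 5.2e-05).

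The counts of Insl3 and Jak3 ran close together in every mouse. Insl3 lies inside Jak3, a kinase of blood cell cytokine receptors on the same strand, at chr8:74213113-74214474 of mm9, and 404 of its 623 exon bases (64.8%) are exon bases of Jak3. Jak3 had 165 and 212 counts at PND 7 beside 142 and 185 for Insl3, and 975 and 433 at PND 28 beside 961 and 425. In RPKM, which scales by exon length, Jak3 measured 20.89 and 15.95 at PND 28 and Insl3 177 and 135. Jak3 was also the gene most like Insl3 over the 10 mice (r = 0.998, out of 12355 genes averaging 5 CPM or more). Whether a read in both genes was counted for both is not given in the sources used here, and how many of the reads come from each gene was not tested.

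**Figure D3:**
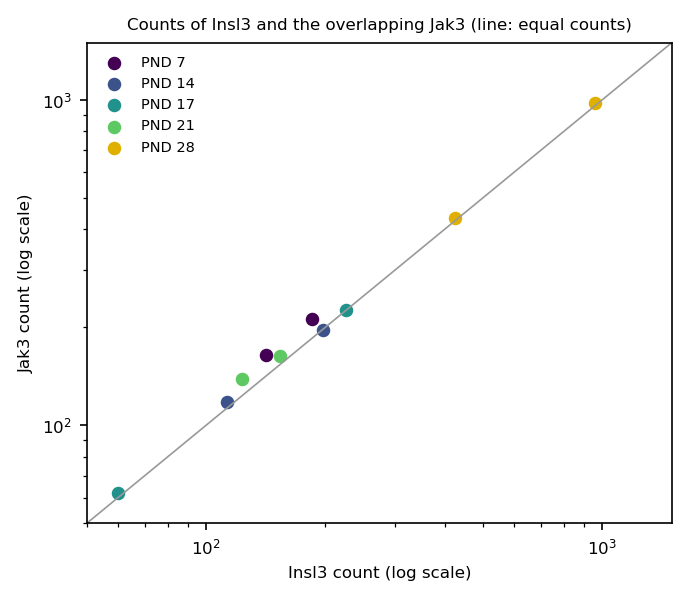
Counts of Jak3 (vertical axis) against counts of Insl3 (horizontal axis), both on log scales, with 1 point per mouse coloured by age and a grey line at equal counts. All 10 points lie on or just above the line, from 60 and 62 counts in PND 17 mouse 2 to 961 and 975 in PND 28 mouse 1.

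Nr5a1, the nuclear receptor that drives most steroidogenic genes and is also made by Sertoli cells, had its lower values at the later ages. Its RPKM was 21.8 and 11.9 at PND 7, 20.9 and 17.9 at PND 14, 15.3 and 16.2 at PND 17, 7.62 and 9.43 at PND 21 and 10.3 and 8.24 at PND 28. In RPKM all 4 mice of PND 21 and PND 28 lay below all 6 younger mice, whereas in the scaled CPM that the test uses PND 28 mouse 1 (51.9) lay above PND 7 mouse 2 (47.3), and none of the 6 comparisons passed the test. 4933433P16Rik, on the other strand, overlaps the gene without sharing an exon base. The log2 fold change from PND 7 to PND 28 was -0.55 (SE 0.30, adjusted p = 0.138).

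In the comparison of PND 7 and PND 14, 2 members were higher at PND 14 (Hsd3b6 and Srd5a1), against 13.5% of all genes tested, 1 was lower (Hsd17b3), against 5.43%, and 7 were not called. The median log2 fold change of the members was -0.20 and that of all genes tested 0.11. From PND 14 to PND 17 none of the members and 0% of all genes were called higher and 0% lower by edgeR, although 769 genes had an unadjusted p under 0.05. DESeq2 called 0 members there too, and the largest value was that of Star (log2 1.19, SE 0.58). From PND 17 to PND 21 the members again gave 0 calls by edgeR, while 9.29% of all genes were higher and 1.05% lower. Star, Cyp11a1, Insl3 and Nr5a1 had an unadjusted p under 0.05 there. DESeq2 called 0 members. Without PND 21 mouse 1 Cyp17a1 was called higher (log2 1.55, adjusted p = 0.0474), and without PND 21 mouse 2 Star was called lower (log2 -2.65, adjusted p = 0.0461).

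From PND 21 to PND 28, 4 of 10 members were higher (Cyp11a1, Cyp17a1, Hsd17b3 and Insl3), against 7.37% of all genes, and 0 were lower, against 0.297%. The fitted log2 fold changes lay between 0.33 and 2.35, with a median of 1.13 against 0.03 over all genes. PND 21 mouse 1 was the lower mouse of its age in CPM for every member except Insl3, for example Star (13.8 against 46.5) and Hsd3b6 (27.4 against 69.2). Its library held 4018007 counts against 6280587, and mitochondrial genes and small structural RNAs took 20.2% of counts against 32.8%. Its mapping rate in the paper was also the lower. Its summed macrophage (44.1 against 96.0 CPM) and myoid markers (164 against 267 CPM) were lower as well. Its Sertoli (896 against 803 CPM) and spermatid markers (121 against 111 CPM) were not. The part of these library and marker differences was not tested. Leaving out PND 21 mouse 1 turned Hsd3b6 to -0.10 and took Star from 1.27 to 0.68. Hsd3b1 then went from 0.98 to 0.47 and Lhcgr from 0.50 to 0.09, and without PND 28 mouse 1 Hsd3b6 was -0.39. Without PND 21 mouse 1 only Insl3 was called (log2 1.43 for Cyp11a1, 1.67 for Cyp17a1 and 1.56 for Hsd17b3). Leaving out either PND 28 mouse also left Insl3 alone, and without PND 21 mouse 2 Insl3 missed the threshold (log2 1.96, adjusted p = 0.0557). The spermatid markers rose from between 111 and 121 CPM to the level given above in the same interval, and their part in these differences was not tested.

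From PND 7 to PND 28, 5 members were higher (Cyp11a1, Hsd3b6, Cyp17a1, Srd5a1 and Insl3) beside 32.2% of all genes, and 1 was lower (Hsd17b3) beside 23.4%. The median log2 fold change was 1.65 for the members, also with Hsd3b6 at its lower bound, and 0.10 for all genes. From PND 14 to PND 28, 5 were higher (Cyp11a1, Hsd3b6, Cyp17a1, Hsd17b3 and Insl3) beside 24.3%, and 0 were lower beside 13.4%. Without PND 14 mouse 2 (log2 1.55) or PND 28 mouse 1 (1.74) Hsd17b3 lost this call. Comparisons that share an age share its mice, so these counts are not independent of each other.

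**Figure D4:**
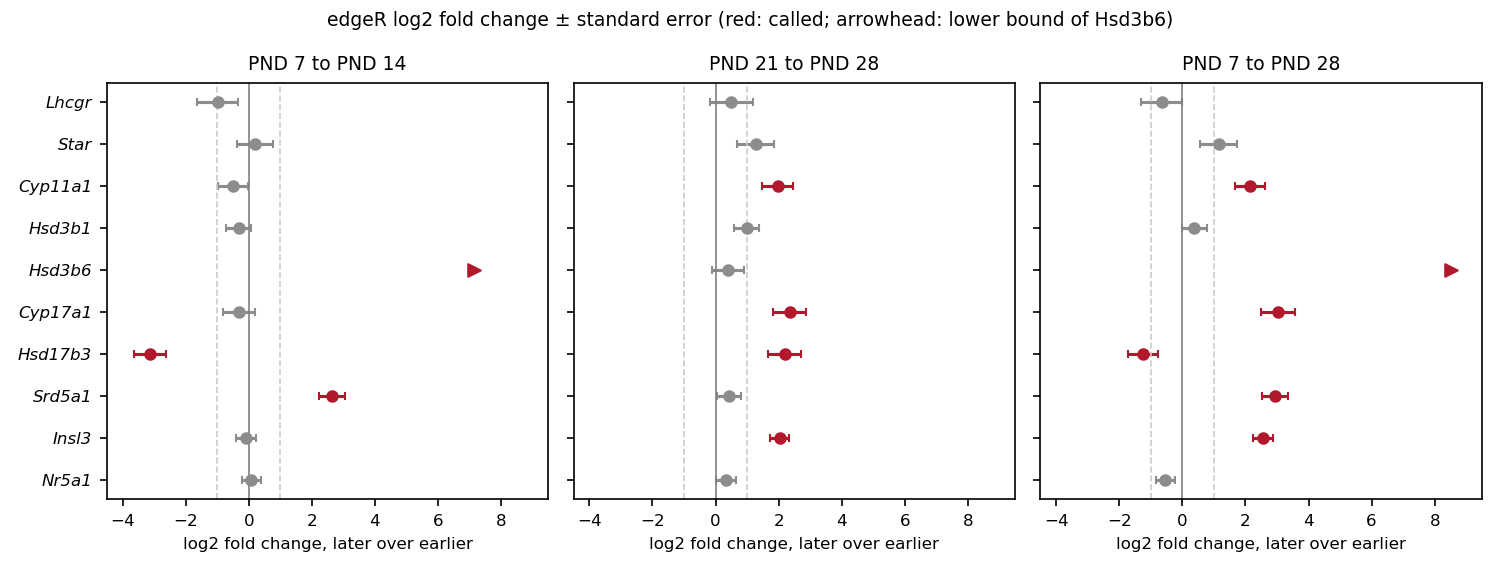
Log2 fold change of each member (horizontal axis, later over earlier age, edgeR) from PND 7 to PND 14, PND 21 to PND 28 and PND 7 to PND 28, with bars for the standard error, red for called members, grey for the others and dashed lines at a 2-fold change. The arrowhead of Hsd3b6 marks its lower bound (at least 141-fold at PND 14 and 369-fold at PND 28), and Hsd17b3 lies left of 0 from PND 7 to PND 14 and right of it from PND 21 to PND 28.

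Ratios between members within a library compare the Leydig genes with each other and do not move with the total. They are free of the share of Leydig cells only where both genes are made by these cells alone, which was not tested. Nr5a1, for one, is also made by Sertoli cells. In all, 10 ratios of RPKM were taken, 9 of a member to Cyp11a1 and that of Hsd3b6 to Hsd3b1. They were compared between the 4 mice of PND 7 and PND 14 and the 4 mice of PND 21 and PND 28. An exact two-sided permutation test of 4 against 4 cannot go below p = 0.0286, and 4 ratios reached that value, each with an adjusted p of 0.0714 over 10 ratios, so 0 passed. On the log2 scale with 0.1 RPKM added, Hsd3b6 to Hsd3b1 was -1.52 and -1.55 in the PND 14 mice and lay between -1.48 and -0.22 in the 4 late mice, while at PND 7, where Hsd3b6 is at 0, its value is set by the number added. Hsd17b3 to Cyp11a1 went from -1.07 ± 1.69 (SD, n = 4) to -3.33 ± 0.32, and its early mean joins 0.84 and -0.29 at PND 7 with -1.87 and -2.97 at PND 14. Lhcgr to Cyp11a1 went from -3.05 ± 0.63 to -4.70 ± 0.93 and Hsd3b1 to Cyp11a1 from 0.49 ± 0.36 to -0.85 ± 0.58. In these 4 the early and late mice did not overlap. The ratios to Cyp11a1 all share its values, so they are not independent of each other. Cyp17a1 to Cyp11a1 moved by 0.49 (exact permutation p = 0.2) and Insl3 to Cyp11a1 by 0.27 (exact permutation p = 0.486).

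Of the 3 listed markers of the fetal type of Leydig cell, 2 could be tested, and both were lower at PND 14 than at PND 7, beside 5.43% of all genes. Dlk1, a secreted and membrane-bound regulator of differentiation, measured 12.1 and 21.9 RPKM at PND 7, 3.02 and 1.02 at PND 14 and 0.06 and 0.42 at PND 28, and Thbs2, a matrix protein, 11.1 and 10.2 RPKM, 3.90 and 4.15 RPKM and 0.43 and 0.63 RPKM. Neither gene overlapped between PND 7 and any later age. The log2 fold change from PND 7 to PND 14 was -3.18 for Dlk1 (SE 0.64, adjusted p = 0.00567) and -1.50 for Thbs2 (SE 0.34, adjusted p = 0.0114). The median log2 fold change at the same step was -0.63 for the Sertoli, -0.63 for the myoid and -0.75 for the endothelial markers, none of which was called. The part of such cells was not tested. Of the 16 ligands and receptors given below, 6 were called lower at this step and 0 higher, and of the 11 transcription factors 2 and 0. Among these, Hhip (log2 -2.27), Gli1 (-1.88) and Nr2f2 (-1.67) fell more than Thbs2, so such a fall was not particular to the fetal-type markers. Mc2r, the receptor for ACTH that completes this list, had 3 counts over all mice.

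Of the adult-type markers, Vcam1, an adhesion molecule that macrophages and vessels can also carry, was higher at PND 28 than at PND 7 (log2 1.28, SE 0.38, adjusted p = 0.0121). Its RPKM was highest in a PND 17 mouse, at 37.0. Sult1e1, which sulfates estrogen, was higher at PND 28 than at PND 14 (log2 4.64, SE 1.63, adjusted p = 0.0383) on 101 counts in all, with 3.43 RPKM in PND 7 mouse 2 and 0 in mouse 1. Ptgds gave no call, and Hsd11b1, which acts on glucocorticoids, was too low to test with 53 counts. The enzymes of corticosteroid synthesis, which some fetal gonadal cells share with the adrenal, were nearly absent, with 19 counts of Cyp21a1, 3 of Cyp11b1 and 0 of Cyp11b2 over all mice.

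**Figure D5:**
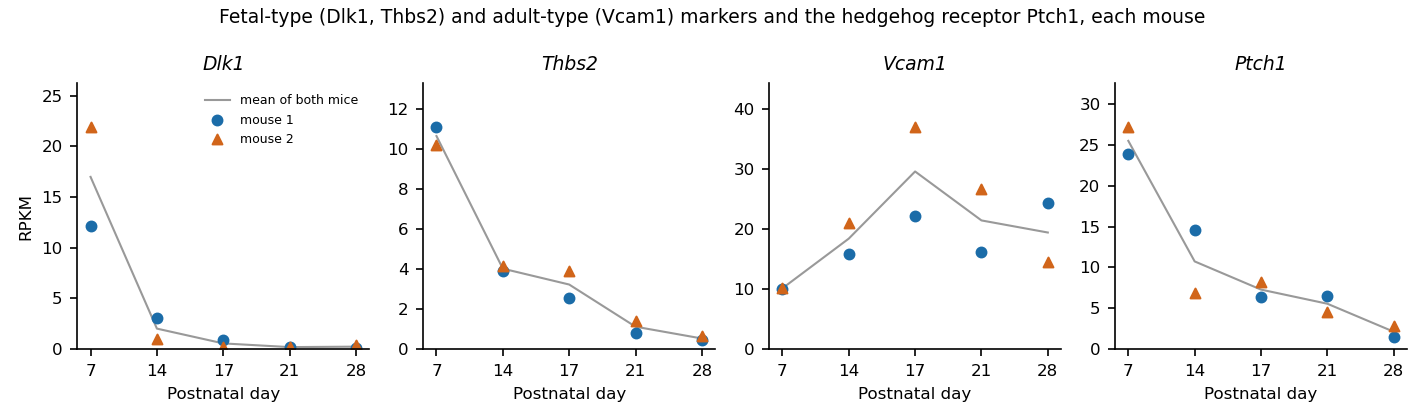
RPKM (vertical axis, linear from 0, a different range in each panel) of the fetal-type markers Dlk1 and Thbs2, the adult-type marker Vcam1 and the hedgehog receptor Ptch1 against postnatal day, with a circle for mouse 1, a triangle for mouse 2 and a grey line through the mean of both. Dlk1, Thbs2 and Ptch1 are highest in the PND 7 mice, and Vcam1 is lowest there.

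Of 16 genes of cholesterol supply, 4 were higher and 1 was lower at PND 28 than at PND 7, beside 32.2% and 23.4% of all genes, with a median log2 fold change of 0.14. Lipe, a lipase of cholesterol esters, was higher at PND 28 than at PND 7 (log2 4.67, SE 0.56, adjusted p = 3.9e-05). Fdft1, Sqle and Cyp51, which make cholesterol, were higher too (log2 3.65, SE 0.35, 1.87, SE 0.27, and 1.68, SE 0.22). Of the other genes of synthesis, Dhcr7 (log2 -0.90, SE 0.28), Mvd (-0.66, SE 0.43) and Lss (-0.34, SE 0.24) were not called and had values below 0. Idi1 and Fdps were not called either, but their mean RPKM was higher at PND 28 (0.99 and 2.8) than at PND 7 (0.36 and 1.8). Npc1, which releases lipoprotein cholesterol from the lysosome, fell (log2 -2.06, SE 0.38, adjusted p = 0.000755). Lipe measured 1.54 and 1.09 RPKM at PND 7, 2.46 and 0.94 at PND 21 and 25.7 and 26.8 at PND 28, so its rise fell in the interval in which the spermatid markers rose. Germ cells express several of these genes too, and their share cannot be told apart in whole testis.

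Of 11 tested genes that donate electrons or lead off the main chain, 2 rose and 2 fell from PND 7 to PND 28, beside 32.2% and 23.4% of all genes. Fdx1, which feeds electrons to Cyp11a1, rose 2.48-fold (log2 1.31, SE 0.24, adjusted p = 0.000699), and Cyp19a1, the aromatase, had 0 counts at PND 7 and was at least 28.7-fold higher at PND 28. Hsd17b1 and Cyp7b1 fell (log2 -3.62, SE 1.06, and -3.93, SE 1.03). From PND 7 to PND 14 only Cyp19a1 of this list was called. Fdxr and Por, further electron donors, were not called.

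Signals to the Leydig lineage and the transcription factors of its cells mostly fell as a share of the total. Among 16 ligands and receptors, 6 were lower at PND 14 than at PND 7, beside 5.43% of all genes. At PND 28, 11 were lower and 2 higher than at PND 7, beside 23.4% and 32.2%, with a median log2 fold change of -2.00. The hedgehog genes that mark the response of interstitial progenitors were among them. Ptch1 measured 23.8 and 27.1 RPKM at PND 7, 14.5 and 6.92 at PND 14 and 1.43 and 2.82 at PND 28 (log2 -3.28, SE 0.39, from PND 7 to PND 28), and Gli1, a transcription factor of the same pathway, fell by 4.16 on the log2 scale. Rxfp2, the receptor of Insl3, rose (log2 3.54, SE 0.82, adjusted p = 0.00328) from 0.065 and 1.15 RPKM at PND 7 to 6.56 and 3.92 at PND 28, and Prlr, the prolactin receptor, rose 2.42-fold.

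Of 11 transcription factors, 8 were lower at PND 28 than at PND 7 and 0 were higher, beside 23.4% and 32.2% of all genes, with a median of -1.82. Nr2f2, which marks progenitors, had 18.6 and 29.6 RPKM at PND 7 and 1.68 and 2.72 at PND 28. Nr0b1, a repressor of Nr5a1, went from 20.4 and 23.4 RPKM at PND 7 to 43.8 and 38.8 at PND 14 and 13.4 and 14.3 at PND 28, and the fall from PND 14 to PND 28 passed the test (log2 -1.15, SE 0.23, adjusted p = 0.00241). Over the same ages 7 of 7 Sertoli, 3 of 5 myoid, 3 of 5 endothelial and 3 of 4 spermatogonium markers were lower at PND 28 than at PND 7. Higher were 1 of 5 endothelial, 1 of 6 macrophage, 4 of 4 spermatocyte and 6 of 6 spermatid markers. The lists of factors and signals hold Dhh, Amh and Wt1, which are also Sertoli markers here, and the part of such cells in these falls was not tested.

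The genes whose log2 CPM ran most like that of a member over the 10 mice were sought among 12355 others. For Cyp11a1 these were Pfdn5 (r = 0.969) and Rpain (0.963), and for Cyp17a1 Ergic2 (0.979) and Myo1c (0.970). Hsd3b6 ran with Cnnm4 (0.994) and Syngr4 (0.994), and Srd5a1 with Bbs2 (0.984). Hsd17b3 ran with Purb (0.950), Hsd3b1 with Pdgfd (0.928), Star with Zfp787 (0.874), Lhcgr with Pdcd10 (0.925) and Nr5a1 with Ftsjd2 (0.975). With 10 mice at 5 ages many genes share such a course, and none of these values is a test.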

How the data were processed

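RNA-seq of whole testes gave 12 libraries of 10 mice, with 2 mice at each of 5 ages. The authors aligned 50 bp SOLiD 4 reads to mm9 with LifeScope, left out reads of ribosomal and transfer RNA and repeats, and deposited a raw count of unique exon reads and an RPKM for each of 37675 genes. Whether strand was used in counting is not given in the sources used here. The counts of both barcodes of a PND 7 mouse were summed and their RPKM averaged. Of the genes listed, 37310 were found in the GENCODE M1 annotation, which gave symbols and coordinates.

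The tests on counts were run in R 4.3.3 with edgeR 4.0.16 (TMM scaling, filterByExpr, quasi-likelihood tests on all 10 mice with age as the factor, Benjamini-Hochberg adjustment over all 16860 genes tested). The spread comes from mice of the same age and from what edgeR shares across genes. A group at 0 was given a floor of 3 counts over its mice. Ratios within a library used RPKM with 0.1 added and exact permutation tests. Total counts of 3994026 to 13559548 per mouse limit the precision of low genes. DESeq2 1.42.0, limma 3.58.1 on the deposited RPKM, other scalings and filters, a replicate block and leaving out each mouse were alternatives. The scripts were tested on simulated data. The members and gene lists were chosen with earlier results of these data known. The rule for named genes took all 10 members, list genes called from PND 7 to PND 14, from PND 14 to PND 28 or from PND 7 to PND 28 or with 0 counts (in lists of over 6 genes the 3 largest changes and the 3 highest RPKM), and the 3 most similar genes per member, of which the text gives the highest. Other list genes named were chosen after their values were seen, and some genes of the cholesterol list are not reported here or counted in it. Python 3.11.15 with pandas 2.3.3 and matplotlib 3.10.9 made tables and figures.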

Additional observations from a re-analysis of the deposited data

How the results depend on the processing

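Of the 18 member differences called in the 6 comparisons, none changed sign under any of 22 alternatives. Without leaving out a mouse, 194 of 216 repeats kept the call and 22 lost it, and with a mouse left out 19 of 180 lost it. These repeats include the setting with no minimum fold change, which cannot lose a call. They also include fits that left out a mouse of an age not compared. Apart from Hsd3b6 without either PND 17 mouse, every loss with a mouse left out came from a mouse of a compared age. The share kept is therefore not a measure of how far the calls depend on the mice compared. With no filter on low counts 1 member was called from PND 14 to PND 17 (Star) and 2 from PND 17 to PND 21 (Star and Cyp11a1). From PND 17 to PND 21 the log2 fold changes stayed near their main values, at -1.58 against -1.51 for Star and 1.10 against 1.17 for Cyp11a1. Their edgeR adjusted p changed far more, to 8.4e-06 from 0.123 for Star and to 0.0023 from 0.136 for Cyp11a1. From PND 21 to PND 28 limma called 1 member with log2(RPKM + 1) and 0 with log2(RPKM + 0.1). From PND 14 to PND 28 limma called 3 members with either, and the criteria in the study's methods gave 3 there and 3 from PND 7 to PND 28. The cause was not tested. The share of all genes called is not given for these settings or for those below, so the counts describe the members only. With a mouse left out, the number of members called ranged from 3 to 4 for PND 7 to PND 14, 0 throughout for PND 14 to PND 17, from 0 to 1 for PND 17 to PND 21, from 1 to 4 for PND 21 to PND 28, from 5 to 7 for PND 7 to PND 28, from 3 to 5 for PND 14 to PND 28, and from 6 to 8 over all ages. The ratio of Srd5a1 to Cyp11a1, which moved by -0.05, moved by 0.0057 with 0.01 RPKM added, and from -0.60 to 0.47 with a mouse left out, and that of Insl3 to Cyp11a1 moved from -0.0099 to 0.52 with a mouse left out. Lhcgr from PND 7 to PND 28 ranged from -1.35 to 0.77 with a mouse left out. Of the 28 uncalled member differences in the comparisons other than PND 14 to PND 17 and PND 7 to PND 28, 14 changed sign in at least 1 alternative and 6 were called in at least 1. Mice with the same number at different ages are different animals, so the numbers do not pair them. The correlation of mouse 1 minus mouse 2 between ages lay between -0.17 and 0.34. It was highest for PND 14 against PND 21, and what the libraries of the same number share there was not tested. With a replicate block, Hsd3b6 lost its call from PND 14 to PND 28 (log2 1.46, adjusted p = 0.0606), which left 4 members there, and the counts of members called in the other comparisons were 3, 0, 0, 4 and 6. Genes with few counts, such as Lhcgr in PND 21 mouse 1 with 17, are limited by depth.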
